A study of Mus musculus with 6 samples.

Results

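The metallothioneins Mt1, Mt2 and Mt3 were followed as a gene family across the cells of the mouse olfactory bulb. They were taken by symbol, and all 3 were found among the 18560 genes of the count table. Single-cell RNA was counted as molecules carrying a unique molecular identifier (UMI) in 6 libraries of dissociated bulb from C57BL/6NJ mice 14 weeks of age, 2 libraries per condition, each from pooled animals. Naris occlusion closed 1 nostril for 6 weeks, and the study took the occluded side as the sample deprived of olfactory input. Olfactory training lasted 6 weeks and used an odor discrimination task for a water reward, in water-deprived mice. Training and water deprivation cannot be told apart in these libraries. Control mice carry no manipulation in the sample labels. The study's text names as control the open side of the occluded mice in 1 place and naive mice in others. Libraries numbered 1 came from males and those numbered 2 from females. Xist was at 5 UMIs or fewer in every library numbered 1 and at 20000 or more in every library numbered 2, whereas Ddx3y was at 1116 or more and at 0.

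Metallothioneins are small proteins unusually rich in cysteine, whose thiol groups hold zinc and copper. Mt1 and Mt2 are made in many tissues and are known targets of the zinc-sensing transcription factor Mtf1 and of glucocorticoids, whereas Mt3 is the brain form of the family and was first described as a growth inhibitory factor. In brain, astrocytes are the textbook site of Mt1 and Mt2.

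The genes lie together on chromosome 8, in the order Mt3, Mt2, Mt1 on 1 strand. In RefSeq on GRCm38.p6, Mt3 spans 94152607 to 94154148, Mt2 94172618 to 94173567 and Mt1 94178883 to 94180327, with 18469 bases between Mt3 and Mt2 and 5315 between Mt2 and Mt1. Mt4, the remaining member, lies before Mt3 and had no row in the count table. The coding sequences are shown because they carry the cysteine pattern and tell how far the 3 genes can be told apart by sequencing. They were read from the GENCODE M1 transcripts, cysteine codons in frame are in capitals, and each holds 20 of them.
Mt1: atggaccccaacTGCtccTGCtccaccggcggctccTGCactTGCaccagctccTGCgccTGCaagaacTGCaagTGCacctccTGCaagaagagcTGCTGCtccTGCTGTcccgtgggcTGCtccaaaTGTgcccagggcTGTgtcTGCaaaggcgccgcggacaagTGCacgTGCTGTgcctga
Mt2: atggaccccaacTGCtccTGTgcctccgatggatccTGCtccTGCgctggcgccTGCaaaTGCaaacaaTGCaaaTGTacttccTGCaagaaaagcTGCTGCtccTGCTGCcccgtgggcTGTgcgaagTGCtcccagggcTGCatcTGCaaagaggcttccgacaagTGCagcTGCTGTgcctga
Mt3: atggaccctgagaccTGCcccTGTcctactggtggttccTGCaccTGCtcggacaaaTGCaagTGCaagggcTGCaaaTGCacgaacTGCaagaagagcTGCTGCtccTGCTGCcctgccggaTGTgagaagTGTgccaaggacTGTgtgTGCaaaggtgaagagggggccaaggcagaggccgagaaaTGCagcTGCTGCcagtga

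Mt1 and Mt2 each had 61 codons before the stop and Mt3 had 68, so cysteine codons made up 32.8% of the first 2 and 29.4% of Mt3. Aligned, the coding bases of Mt1 and Mt2 were 79.6% identical, those of Mt1 and Mt3 68.9% and those of Mt2 and Mt3 69.2%. The libraries read the 3′ end of each transcript. Over the last 200 bases of the transcripts, the longest run of bases shared between any 2 of the 3 genes was 12.

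The 250 bases before the start given for each gene in the promoter table are shown because Mt1 and Mt2 are the classic genes with metal response elements, the sites of Mtf1. These are RefSeq promoters on GRCm38.p6, plus strand, and capitals mark the core of a metal response element, TGCACNC or TGCGCNC on either strand. For Mt1 the window reaches into the gene span given above, whose first base is 94178883.
Mt1, chr8:94178839-94179088: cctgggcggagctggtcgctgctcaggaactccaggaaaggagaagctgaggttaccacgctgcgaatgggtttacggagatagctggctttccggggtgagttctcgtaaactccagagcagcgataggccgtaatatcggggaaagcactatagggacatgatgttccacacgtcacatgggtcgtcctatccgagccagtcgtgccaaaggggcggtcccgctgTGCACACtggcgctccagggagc
Mt2, chr8:94172368-94172617: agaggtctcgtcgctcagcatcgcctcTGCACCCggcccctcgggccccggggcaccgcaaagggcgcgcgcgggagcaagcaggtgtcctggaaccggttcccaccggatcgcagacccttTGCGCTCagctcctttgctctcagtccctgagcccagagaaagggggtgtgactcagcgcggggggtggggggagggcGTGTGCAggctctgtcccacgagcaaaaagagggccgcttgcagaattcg
Mt3, chr8:94152357-94152606: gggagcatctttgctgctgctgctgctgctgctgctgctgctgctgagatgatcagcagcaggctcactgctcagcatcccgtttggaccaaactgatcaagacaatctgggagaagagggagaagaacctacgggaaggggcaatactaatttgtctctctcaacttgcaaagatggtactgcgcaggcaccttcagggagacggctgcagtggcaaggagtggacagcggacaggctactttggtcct

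Before the start, the core occurred 3 times in Mt2, 1 time in Mt1 and not in Mt3. In the first 50 bases after it, the core occurred 2 times in Mt1 and 1 time each in Mt2 and Mt3, and no cores overlapped. Of 32851 promoter windows of 250 bases, 21.4% held the core at least once and 1.26% at least 3 times. The antioxidant response element core TGACNNNGC, searched on both strands in the same windows, occurred 1 time in Mt2 and not in Mt1 or Mt3, and 10.2% of all windows held it. A match here describes letters in a window and not a site in use. The counts depend on the start given in the promoter table, and sites outside these bases were not searched. They are therefore not a full count of the metal response elements of a gene.

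Of 52549 barcodes, 51426 carried a cluster, and the 6 libraries held 6705 to 10570 of them and 11841160 to 17065083 UMIs. Median depth was 1028 to 1723.5 UMIs per cell, and the shallowest library, olfactory training replicate 1, also had the highest median mitochondrial share, 14.4% against 9.25% to 11.6% in the others. Between libraries, 1461 barcode sequences occurred more than once, in 2956 cells. The clusters were the 38 of the whole bulb and the 18 of the neurons as annotated by the authors, and they were grouped into 15 classes by name. All 5 listed astrocyte markers were highest in astrocytes. Each listed marker of endothelial, mural, mesenchymal, microglial, sensory neuron and red blood cell classes was highest in its class, as were Frzb and Fabp7 for ensheathing cells and 3 of 5 markers for adult-born neurons. The ensheathing cell marker Sox10 was higher in oligodendrocyte precursors, and the adult-born neuron markers Gad1 and Slc32a1 in external plexiform layer interneurons.

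All 3 metallothioneins were highest in astrocytes, the glia that enwrap synapses and vessels. Levels are CPM, counts scaled to the same total in every sample, from counts summed over the cells of a class in a library, given as mean ± SD over the 6 libraries. The authors' clusters were made from the same cells and genes, so classes were described and not tested against each other. Mt1 was 7786 ± 998 CPM, Mt3 6814 ± 297 and Mt2 2741 ± 422 in the 5246 astrocytes. Mt1 ranked 4, Mt3 ranked 5 and Mt2 ranked 15 there among the genes that are not mitochondrial. Astrocytes were 10.2% of cells and 9.48% of all UMIs, and they held 36.6% ± 1.36 of all Mt1 UMIs, 49.5% ± 1.73 of Mt2 and 51.2% ± 3.92 of Mt3 (SD over libraries). Olfactory ensheathing cells, the glia that wrap incoming sensory axons, held the next largest glial share, 21.8% ± 2.01 of Mt1, 14.9% ± 1.66 of Mt2 and 9.15% ± 0.387 of Mt3, with 22.5% of cells.

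**Figure D1:**
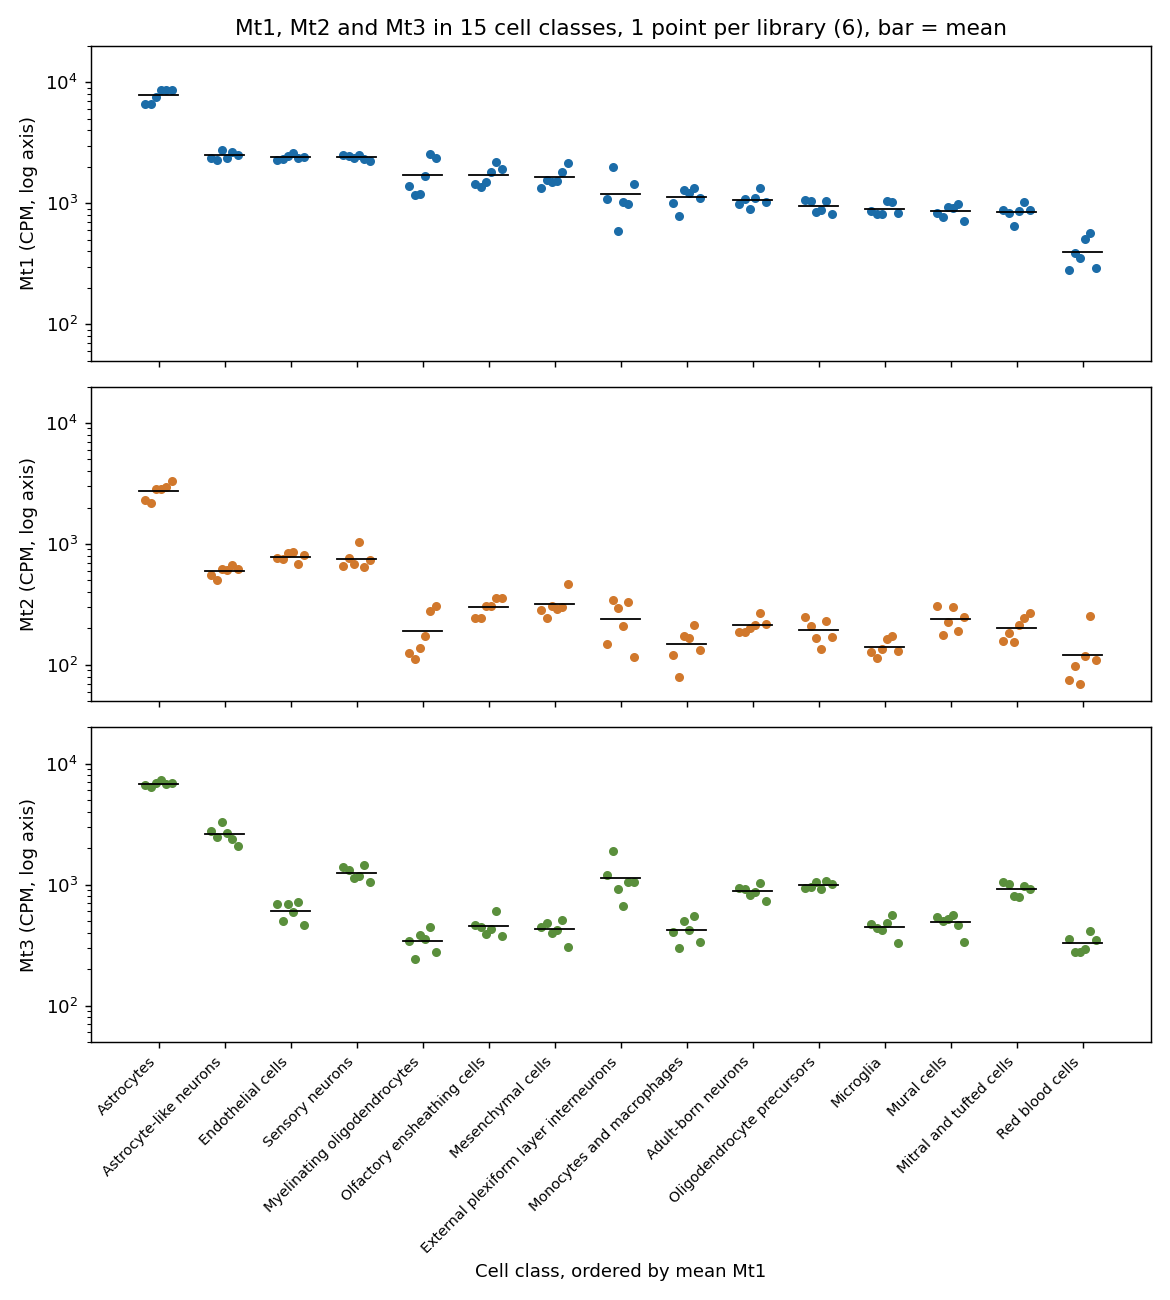
CPM of Mt1, Mt2 and Mt3 (rows, log axes) in 15 cell classes, with 1 point per library and a bar at the mean of the 6 libraries. Astrocytes stand above every other class for each gene, and red blood cells have the lowest mean, 398 CPM for Mt1. Hemoglobin takes up most of the red blood cell total, which lowers the CPM of other genes there.

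Clusters carry the names of the deposited annotation. By cell number, Astro2 and Astro3 are exchanged against the names in the published account, and N16 of the whole-bulb clustering has another number there. Among the 3 astrocyte clusters, Astro2 was highest for all members, with 10119 ± 2037 CPM of Mt1, 3644 ± 767 of Mt2 and 7952 ± 1194 of Mt3 in 336 cells. Astro1, the largest with 3130 cells, had 7689 ± 963, 2723 ± 383 and 6725 ± 268 CPM. Astro3 had 7195 ± 1033, 2461 ± 581 and 6813 ± 629 CPM in 1780 cells of lower depth, at a median of 708.5 UMIs against 1851.5 in Astro1. Astro2 lay above Astro1 for Mt1 and Mt2 in 6 of 6 libraries and by more than the larger SD. Astro1 and Astro3 did not differ beyond their spread for any of the 3 genes. Over the whole order of 38 clusters, 5 of 37 neighbouring pairs differed by more than the larger SD for Mt1, 2 for Mt2 and 2 for Mt3.

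Expression within astrocytes was broad. The median astrocyte held 8 UMIs of Mt1, 3 of Mt2 and 8 of Mt3, and the highest 198, 75 and 96. All 3 genes were detected together in 75.1% of astrocytes and none in 1.03%. Mt1 had a UMI in 94.8% of astrocytes, Mt3 in 93.2% and Mt2 in 79.7%. After thinning every cell to 500 UMIs, which left out no astrocyte, these shares were 87.3%, 86.1% and 60.4%.

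Across single astrocytes, the members varied together. In each library, Pearson's r was computed over cells on log-scaled levels, and it is given as a mean over 6 libraries with no test, since the cells share their library and depth. Mt1 with Mt3 had r = 0.57 (0.51 to 0.64 over libraries), Mt1 with Mt2 0.50 (0.44 to 0.57) and Mt2 with Mt3 0.43 (0.36 to 0.52). Of 4251 genes compared, the 5 most like Mt1 were Mt3, Mt2, Dbi, Aldoc and Ckb, and for Mt2 and for Mt3 they were the other members with the same 3 genes. Dbi, an acyl-CoA-binding protein, had r = 0.48 with Mt1, the glycolytic enzyme Aldoc 0.46 and the brain creatine kinase Ckb 0.40. Gfap, the intermediate filament of reactive astrocytes, had r = 0.14 with Mt1. Gfap was at 330 CPM in astrocytes against 2727 for Aldoc. Few counts per cell lower r, so these values of r are not compared between genes of different level. In the 3080 astrocytes with 1000 UMIs or more, the first 2 for Mt1 were again Mt3 and Mt2, with r = 0.62 and 0.58.

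Over the means of the 38 clusters, the genes most like each member were found by Pearson's r of log2(CPM + 1) among 8795 genes that reached 50 CPM in a cluster, again with no test. Mt1 and Mt2 were each other's closest gene, with r = 0.93. After Mt2, the genes nearest to Mt1 were Hrsp12 (0.79), A330048O09Rik (0.77), Gm13111 (0.73) and Mt3 (0.72). For Mt2 they were Mlc1, an astrocyte endfoot protein (0.82), A330048O09Rik (0.80), the GABA transporter Slc6a11 (0.80) and the glycine cleavage enzyme Gldc (0.80). Mt3 was closest to genes with their highest level in Astro1, namely the claudin Cldn10 (0.86), the acyl-CoA synthetase Acsl6 (0.86), Mlc1 (0.86), the chemokine Cxcl14 (0.86) and the mitochondrial glutamate carrier Slc25a18 (0.85). Mt1 came only at rank 47 for Mt3 and Mt2 at rank 21, and Aqp4, the astrocyte water channel, was at rank 7 with r = 0.85.

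In endothelial cells and several glial classes, Mt1 stood further above Mt3 than in astrocytes. Endothelial cells, which line vessels, had 2407 ± 124 CPM of Mt1 and 784 ± 67.2 of Mt2, 31.2% and 29.1% of the astrocyte level, but 607 ± 108 of Mt3, 8.92% of it. In EC1, the larger endothelial cluster, Mt1 was 2362 ± 160 CPM and Mt3 399 ± 67.9. EC2, at a median of 750.5 UMIs per cell, had 2609 ± 315 of Mt1 and 1453 ± 214 of Mt3. Ensheathing cells had 1711 ± 327 CPM of Mt1, 303 ± 50.4 of Mt2 and 450 ± 79.8 of Mt3. Myelinating oligodendrocytes had 1725 ± 602 of Mt1 with 190 ± 84.7 of Mt2 and 340 ± 72.3 of Mt3, with a wide spread over libraries. Mesenchymal cells had 1647 ± 289, 316 ± 78.1 and 426 ± 70.7 CPM. Oligodendrocyte precursors had 951 ± 114 of Mt1 and 991 ± 58.5 of Mt3.

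A count at the 3′ end registers 1 end per molecule whatever the transcript length, so ratios of members can be set side by side between classes, as ratios of counts that include free RNA. The ratio of Mt1 to Mt3 was 1.14 ± 0.119 in astrocytes, 4.08 ± 0.806 in endothelial cells, 3.85 ± 0.752 in ensheathing cells, 4.04 ± 1.48 in mesenchymal cells and 5.17 ± 1.85 in myelinating oligodendrocytes. It was near that of astrocytes in adult-born neurons (1.21 ± 0.136), oligodendrocyte precursors (0.964 ± 0.14) and mitral and tufted cells (0.93 ± 0.124). Over libraries it ran from 1.00 to 1.29 in astrocytes and from 3.28 to 5.26 in endothelial cells, without overlap. The ratio of Mt1 to Mt2 was 2.85 ± 0.172 in astrocytes and 3.08 ± 0.218 in endothelial cells. It was 5.65 ± 0.459 in ensheathing cells, 6.48 ± 0.458 in microglia, 7.93 ± 1.28 in monocytes and macrophages and 9.41 ± 1.22 in myelinating oligodendrocytes. Several of these denominators were at the level of red blood cells, which were taken to lack the genes without a test. Mt3 per cell was 0.988 UMIs in endothelial cells, 0.871 in ensheathing cells, 1.07 in mesenchymal cells and 1.19 in myelinating oligodendrocytes, against 1.28 in red blood cells. Mt2 per cell was 0.256 in microglia and 0.30 in monocytes and macrophages, against 0.393 in red blood cells. The part of free RNA in the ratios with such a denominator was not tested.

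**Figure D2:**
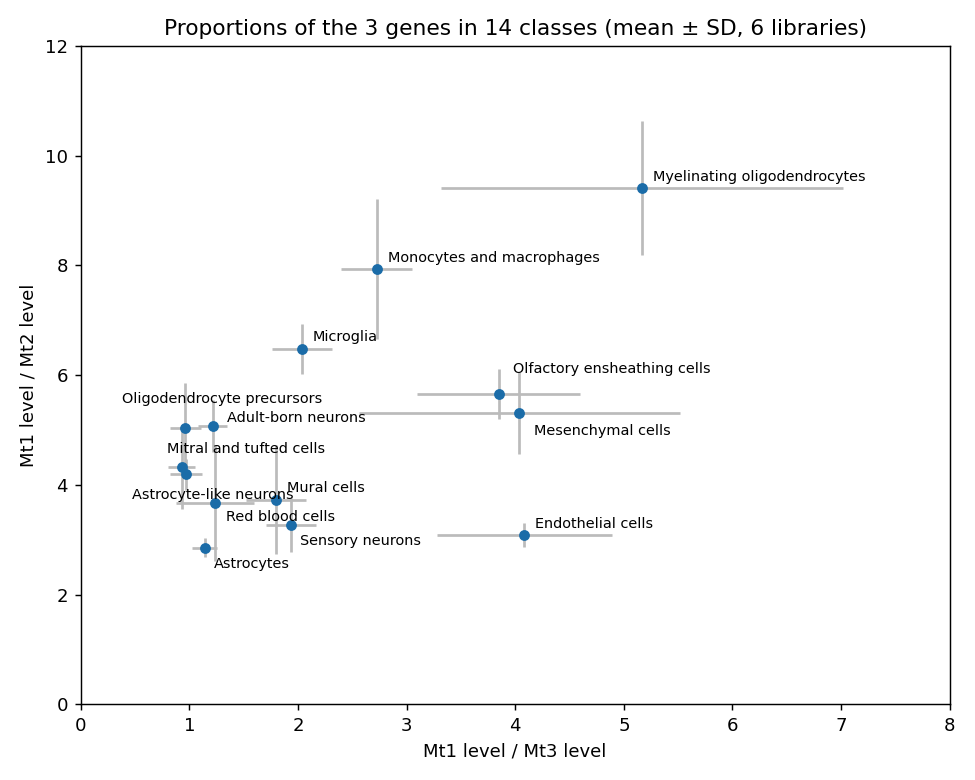
Ratio of Mt1 to Mt2 level (y axis) against the ratio of Mt1 to Mt3 level (x axis) in 14 classes, as points with bars of 1 SD over 6 libraries. Astrocytes sit at the lower left, and endothelial cells have the astrocyte ratio of Mt1 to Mt2 with a higher ratio of Mt1 to Mt3. Myelinating oligodendrocytes are farthest out on both axes, with Mt3 per cell near that of red blood cells. In CPM their Mt3 was 340 against 327, where hemoglobin takes up most of the red blood cell total. External plexiform layer interneurons are left out for their 161 cells.

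A UMI of Mt1 was found in 75.2% of all annotated cells, of Mt3 in 61.3% and of Mt2 in 35.1%, red blood cells included. Red blood cells, at a median of 3894 UMIs, had Mt1 in 60.7% of cells, Mt2 in 22.8% and Mt3 in 56.6%, or 17.8%, 6.85% and 21.0% thinned to 500 UMIs. They held 398 ± 115 CPM of Mt1, 121 ± 68.9 of Mt2 and 327 ± 53.7 of Mt3, in the ratios 3.67 ± 1.05 of Mt1 to Mt2 and 1.24 ± 0.359 of Mt1 to Mt3. Hemoglobin took up most of their total, with Hba-a1 at 199183 and Hbb-bs at 390434 CPM, which lowers the CPM of other genes. Free RNA from broken cells enters every droplet, and within a sample a single source keeps its genes in a fixed proportion. Per cell they held 1.46 UMIs of Mt1, 0.393 of Mt2 and 1.28 of Mt3. These cells were taken to lack the genes, which was not tested, so counts per cell near theirs are not read as expression. The free RNA of a droplet may be less than this, since n04-Immature neurons held fewer, 0.805 UMIs of Mt1, 0.219 of Mt2 and 0.767 of Mt3 per cell.

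Neurons were set against this background with 10 listed astrocyte genes, among them the glutamate transporters Slc1a2 and Slc1a3, Aqp4 and the gap junction gene Gja1. For each gene, the level in a neuronal cluster was expressed as a percent of its level in astrocytes, and the median of the 10 was taken in each library. In the 16302 adult-born neurons, a class of inhibitory clusters that the study assigns to adult-born lineages, this median was 5.52% ± 0.436. The class includes n05-PGC-2 and n12-GC-6, which the study describes as made earlier in life and little replaced in adults. Mt1 was at 13.8% ± 1.95, Mt3 at 13.02% ± 1.83 and Mt2 at 7.79% ± 0.932 of astrocytes. Mt1 was thus 2.50 ± 0.254, Mt3 2.35 ± 0.206 and Mt2 1.41 ± 0.107 times the astrocyte genes. In the 219 red blood cells the same ratios were 1.76 ± 0.882 for Mt1, 1.79 ± 1.19 for Mt3 and 1.46 ± 0.809 for Mt2, and each neuronal value lay within 1 SD of these. The 10 genes spread from 2.10% to 28.5%, so 1 of them lay above Mt1 and 2 above Mt2.

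In CPM, adult-born neurons had 1070 ± 150 of Mt1, 884 ± 104 of Mt3 and 212 ± 31.0 of Mt2. Mt1 was 7.28-fold, Mt3 7.75-fold and Mt2 12.9-fold higher in astrocytes, in 6 of 6 libraries for each. The corresponding log2 ratios of neurons to astrocytes were −2.86 ± 0.20, −2.95 ± 0.21 and −3.69 ± 0.17. A UMI of Mt1 was present in 62.5% of adult-born neurons, of Mt3 in 61.0% and of Mt2 in 22.9%, at a median of 1212 UMIs per cell, against 1273.5 in astrocytes. Thinned to 500 UMIs, the shares were 36.7%, 34.7% and 10.0%. Thinning lowers free RNA more in the deeper red blood cells, so no order is read from thinned shares. Per cell, adult-born neurons held 1.58 UMIs of Mt1, 0.313 of Mt2 and 1.31 of Mt3, near the 1.46, 0.393 and 1.28 of red blood cells. Over the whole class, their counts per cell were not told apart from those of red blood cells and lay above those of n04-Immature, and the part of free RNA in them was not tested.

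**Figure D3:**
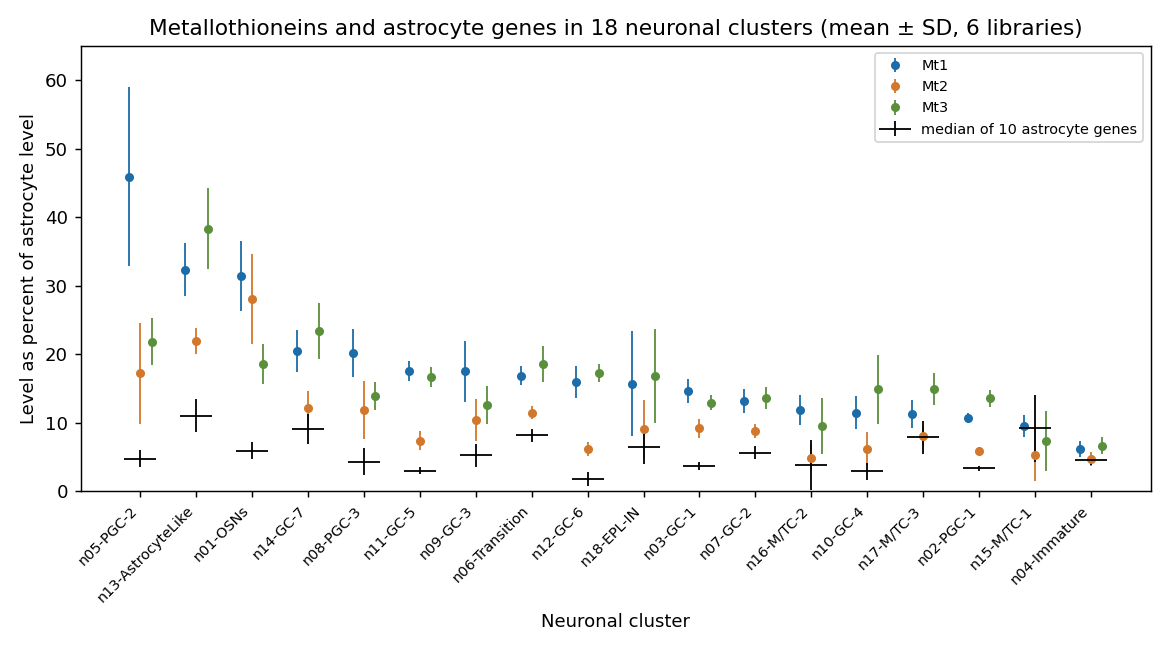
Level of Mt1, Mt2 and Mt3 in 18 neuronal clusters as a percent of the astrocyte level (y axis), beside the median of 10 astrocyte genes (black bars), as mean ± SD over 6 libraries. Cluster n05-PGC-2 is highest for Mt1 at 45.9%, and n04-Immature is lowest at 6.12%, near its astrocyte genes at 4.47%.

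Immature neurons lay at the bottom. Cluster n04-Immature, with 3910 cells, had 473 ± 90.3 CPM of Mt1, 127 ± 35.0 of Mt2 and 450 ± 76.6 of Mt3, the lowest of the 18 neuronal clusters for each gene. For Mt2 and Mt3 the neighbours in the order did not differ from it beyond their spread. Its Mt1 was 1.37 ± 0.161, its Mt2 1.05 ± 0.199 and its Mt3 1.48 ± 0.165 times the median of the astrocyte genes. The ratio of Mt1 to Mt3 there, 1.05 ± 0.0905, was close to that of astrocytes. A level of this size was not told apart from free RNA.

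A periglomerular cluster lay at the top for Mt1. In n05-PGC-2, which the study marks by Th, the rate-limiting enzyme of dopamine synthesis, Mt1 was 3641 and 4473 CPM in control, 2542 and 3012 in occlusion and 3721 and 3567 in training libraries, 3492 ± 660 over all. Mt3 was 1481 ± 201 and Mt2 446 ± 120. Mt1 was 45.9% ± 13.1 of the astrocyte level, above all 10 astrocyte genes there, whose median was 4.75% ± 1.18. The next neuronal cluster was lower by 1003 CPM, more than the larger SD, in 5 of 6 libraries. The ratio of Mt1 to Mt2 was 8.18 ± 2.25 in n05-PGC-2 and 2.85 ± 0.172 in astrocytes, and that of Mt1 to Mt3 was 2.38 ± 0.493 and 1.14 ± 0.119. Within n05-PGC-2, the 166 cells that belong to N16 in the whole-bulb clustering had 4209 ± 744 CPM of Mt1 at a median of 4020 UMIs. The other 211 cells had 1741 ± 439 at 920 UMIs.

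In granule cell clusters too, Mt1 and Mt3 stood above the median of the astrocyte genes, though not above each of the 10. In n12-GC-6, 237 cells at a median of 3533 UMIs and a mitochondrial share of 6.35%, Mt1 was 1247 ± 276 CPM and Mt3 1173 ± 86.8, 15.9% and 17.2% of astrocytes, where the astrocyte genes were at 1.74% ± 0.989. In n11-GC-5, with 1669 cells, Mt1 was 1369 ± 234 CPM and Mt3 1136 ± 93.9, 6.00 ± 1.05 and 5.71 ± 0.973 times the median of the astrocyte genes. In both clusters 9 of the 10 astrocyte genes lay below Mt1. The shallower n07-GC-2 and n14-GC-7 were at 2.38 ± 0.248 and 2.34 ± 0.501 times the median for Mt1. Both of the deeper clusters held Mt2 at 172 ± 51.0 and 201 ± 49.3 CPM, with ratios of Mt1 to Mt2 of 7.48 ± 1.25 and 6.90 ± 0.585. Per cell, n12-GC-6 held 4.35 UMIs of Mt1 and n05-PGC-2 9.08, against 0.805 in n04-Immature and 1.46 in red blood cells.

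Clusters of shallow cells with a high mitochondrial share differed among themselves. The sensory neurons of n01-OSNs, at a median mitochondrial share of 39.0%, had 2402 ± 108 CPM of Mt1, 755 ± 150 of Mt2 and 1256 ± 163 of Mt3. Cluster n13-AstrocyteLike, at 30.5%, had 2490 ± 195, 596 ± 59.5 and 2609 ± 402 CPM, with Mt3 above that of the next neuronal cluster in 6 of 6 libraries. In n13-AstrocyteLike, Mt1 and Mt3 were at 32.3% ± 3.86 and 38.3% ± 5.90 of astrocytes, 3.07 ± 0.811 and 3.64 ± 1.08 times the median of the astrocyte genes. Cluster n14-GC-7, at 29.7%, was lower, with 1582 ± 260 CPM of Mt1, 327 ± 61.5 of Mt2 and 1589 ± 266 of Mt3. The part of depth and mitochondrial share in these levels was not tested.

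Mitral and tufted cells, the output neurons of the bulb, had 856 ± 121 CPM of Mt1, 203 ± 47.0 of Mt2 and 925 ± 109 of Mt3. These were 1.49 ± 0.215, 1.00 ± 0.198 and 1.84 ± 0.334 times the astrocyte genes.

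The study varied olfactory input, and Mt1, Mt2 and Mt3 were compared between conditions in 7 classes with edgeR's quasi-likelihood test on counts summed per library, adjusted over all genes tested in the class. None of the 63 member tests had an edgeR adjusted p under 0.05, with 14 under 0.05 before adjustment and 3 called by DESeq2. Those 3 were for training against control in astrocytes and ensheathing cells, where DESeq2 called 3 of 10447 and 17 of 12077 genes. Over all genes in the same 21 pairs of class and comparison, edgeR called 0.174% of tests and left 6.87% under 0.05 before adjustment. With 2 libraries a group, an exact permutation test cannot give a two-sided p below 0.333. Without any difference, 2 groups of 2 libraries fail to overlap with that same probability. The share of all genes without overlap was not counted, so lack of overlap is given as description only. Libraries of a condition differ in the sex of the pool. The study calls the libraries batches of pooled animals and does not state that they came from separate dissections. These p-values therefore measure the spread between 2 libraries a group.

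In astrocytes, Mt1 was 6610 and 6624 CPM in the control libraries, 7560 and 8599 after occlusion and 8639 and 8684 after training. Both manipulated groups lay above the control without overlap. The summed level of the 5 astrocyte markers in the same cells also lay above the control without overlap, at 8193 and 8255 CPM in control, 9019 and 9075 in occlusion and 8513 and 9202 in training libraries, and the part of this in the result was not tested. Mt1 differed by 0.39 on the log2 scale (SE 0.10) between training and control, with an edgeR adjusted p of 0.256, and by 0.25 (SE 0.10, adjusted p = 0.926) between occlusion and control, or 0.16 without occlusion replicate 2. Mt2 was 2291 and 2185 CPM in control, 2858 and 2865 in occlusion and 2959 and 3291 in training libraries. Its difference was 0.48 (SE 0.11, edgeR adjusted p = 0.125) for training and 0.32 (SE 0.11, adjusted p = 0.926) for occlusion. DESeq2 called Mt2 for training, with an adjusted p of 0.0392, and not Mt1, at 0.346. Mt3 was 6597 and 6457, 6904 and 7306, and 6721 and 6896 CPM in the same order, and differed by 0.06 (SE 0.10, edgeR adjusted p = 0.966) for training. In the same comparisons the share of genes called was 0.0191% for occlusion against control, 0.0287% for training against control and 0.22% for training against occlusion.

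For Mt1 and Mt2, both control libraries lay below the other 4 within each astrocyte cluster. In Astro1, Mt1 was 6616 and 6617 CPM in control against 7320 to 8768 in the other libraries, in Astro2 7716 and 8338 against 9238 to 13082, and in Astro3 5990 and 5805 against 7459 to 8177. In Astro2 alone the training difference passed the threshold, at 0.59 for Mt1 and 0.66 for Mt2 (edgeR adjusted p = 0.0013 and 0.0229). Mt3 in Astro2 was 7032 and 6458 CPM in control, 7482 and 8350 in occlusion and 8660 and 9733 in training libraries, a training difference of 0.45 (edgeR adjusted p = 0.10) against 0.02 in Astro1 and 0.03 in Astro3. In Astro1 alone the adjusted p of Mt1 and Mt2 was 0.132 and 0.0816, and in Astro3 alone 0.997 and 0.642. In astrocytes with 1000 UMIs or more the difference was 0.40 and 0.49 (adjusted p = 0.0414 and 0.0179). Without a filter on low counts it passed as well, with adjusted p of 0.00741 and 0.00426. In the deeper cells and without a filter, more genes were also called over all genes than in the main fit. Leaving out training replicate 1 also brought Mt1 and Mt2 under the threshold, with adjusted p of 0.0418 and 0.00791, as did leaving out training replicate 2, with 0.0137 and 0.0394. Neither passed when a control or an occlusion library was left out, with edgeR adjusted p of 0.467 to 0.997 for Mt1 and 0.32 to 0.864 for Mt2. Nor did they with the replicate block (0.335 and 0.0937) or with the libraries of the 2 groups alone (0.633 and 0.429). Mt1 passed in 5 of 16 alternative settings and Mt2 in 6, with the differences between 0.36 and 0.59 and between 0.41 and 0.67. The lone library of a group is then assumed to vary like those of the other groups.

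In ensheathing cells, Mt1 was 1439 and 1375 CPM in control, 1509 and 1814 in occlusion and 2216 and 1911 in training libraries. Mt2 was 243 and 247, 304 and 309, and 355 and 359 CPM, so that the 3 conditions did not overlap. The training difference was 0.56 (SE 0.11) for Mt1 and 0.55 (SE 0.09) for Mt2, with edgeR adjusted p of 0.131 and 0.065. DESeq2 called both, with adjusted p of 0.00263 and 0.00184, as did edgeR without a filter on low counts, with 1.3e-06 and 0.000113. Without training replicate 2, edgeR called both as well, at 0.00819 and 0.022, and with the replicate block it called Mt2, at 0.0482, and not Mt1, at 0.129. Mt1 passed in 3 of 13 alternative settings and Mt2 in 4. Apart from DESeq2, the share of all genes called in these settings was not counted in ensheathing cells, so these passes have no background beside them. Leaving out any other library kept both above the threshold, with edgeR adjusted p up to 0.996 without control replicate 1. For training against occlusion, Mt1 differed by 0.34 (edgeR adjusted p = 0.335) and passed in 2 of 13 settings, without a filter on low counts (0.0313) and without training replicate 2 (0.0335). Mt3 was 459 and 448, 391 and 427, and 599 and 376 CPM, and its training libraries lay on either side of the control. For training against occlusion it passed only without training replicate 2 (0.58, edgeR adjusted p = 0.0101), where leaving out training replicate 1 turned it to −0.10. The summed level of the 5 astrocyte markers in ensheathing cells was 2999 and 2964 CPM in control, 3168 and 3004 in occlusion and 3274 and 3173 in training libraries, none of the markers at 0. Listed dissociation genes, 16 tested, had a median of 0.59 for training against control in the same cells with 15 above 0, and listed glucocorticoid targets, 14 tested, a median of 0.51 with 13 above 0, where the median of all genes was −0.0025. The part of these in the result was not tested. The share of genes called was 0.00828%, 0% and 0.0166% for occlusion against control, training against control and training against occlusion. For training against control, edgeR left 798 genes under 0.05 before adjustment and DESeq2 called 17.

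**Figure D4:**
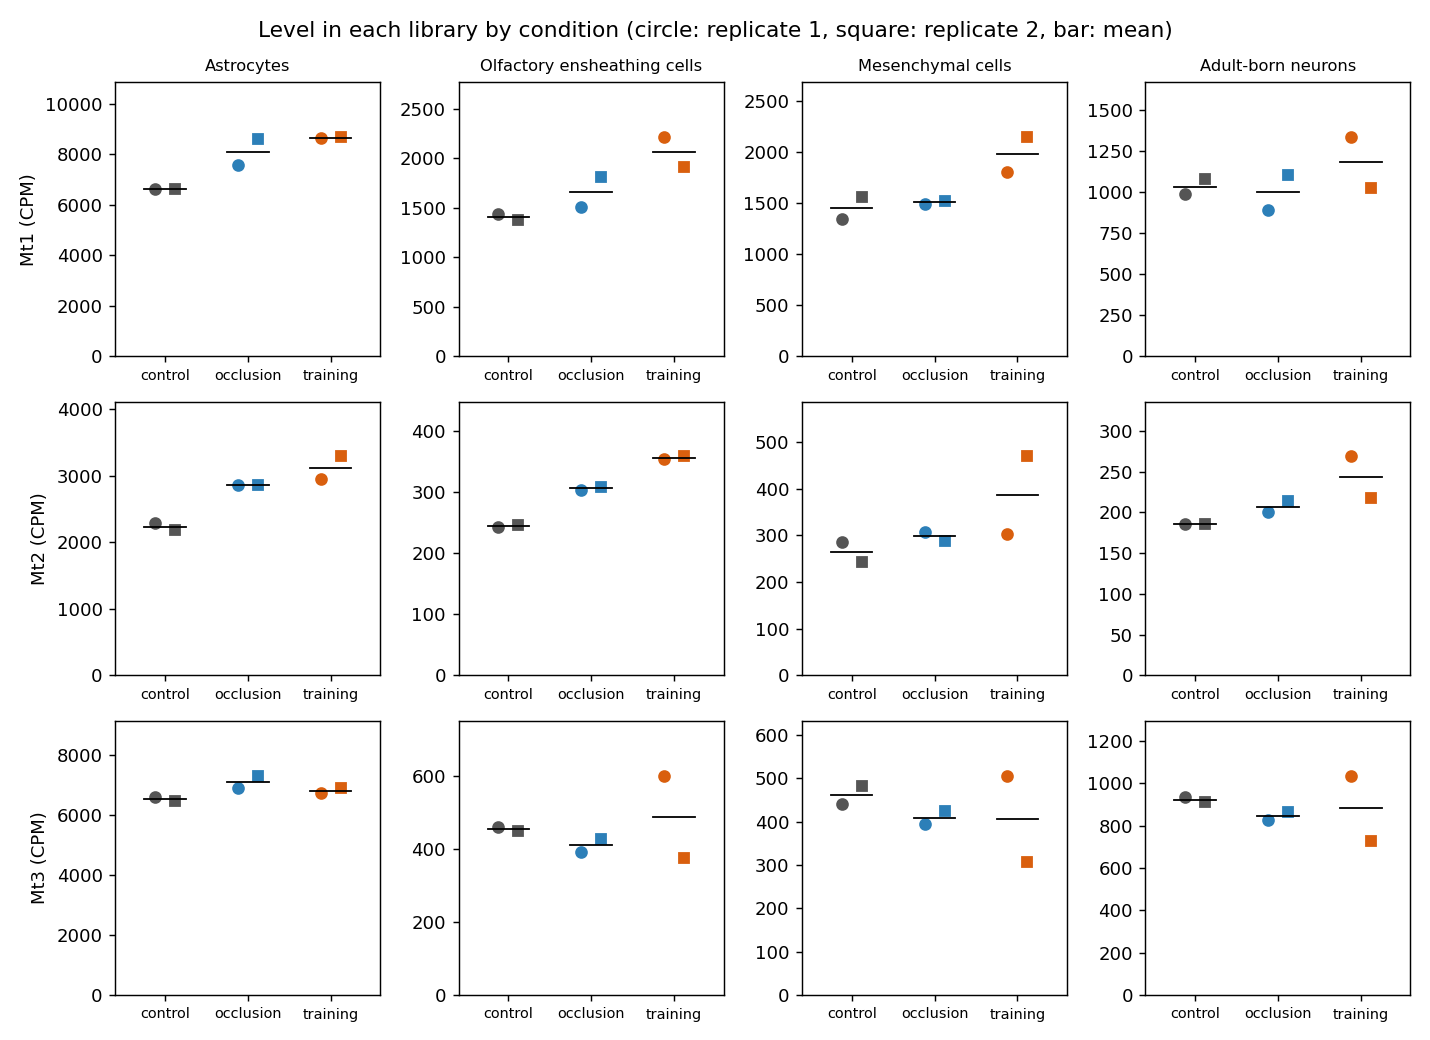
CPM of Mt1, Mt2 and Mt3 (rows) in 4 classes (columns) by condition, with circles for replicate 1, squares for replicate 2, bars at the mean and axes from 0. In astrocytes and ensheathing cells both training libraries lie above both control libraries for Mt1 and Mt2, whereas Mt3 of ensheathing cells overlaps, at 599 and 376 against 459 and 448 CPM.

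Mesenchymal cells had Mt1 at 1344 and 1563 CPM in control, 1495 and 1521 in occlusion and 1811 and 2149 in training libraries, a training difference of 0.50 (SE 0.16, edgeR adjusted p = 0.863). Mt2 was 286 and 243 in control against 303 and 469 in training libraries. By edgeR the share of genes called was 0% in each of the 3 comparisons of mesenchymal cells, with 181, 264 and 289 genes under 0.05 before adjustment and 0 by DESeq2. In microglia it was 0% in each as well, with 391, 443 and 640 genes under 0.05 before adjustment, and DESeq2 called 0, 0 and 1.

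Adult-born neurons showed Mt2 at 185 and 185 CPM in control, 200 and 214 in occlusion and 269 and 218 in training libraries, a training difference of 0.39 (SE 0.13, edgeR adjusted p = 0.413). It was 0.20 without training replicate 1, the higher of the training libraries, and 0.64 in n04-Immature alone (edgeR adjusted p = 0.939). Mt2 per cell in this class and in n04-Immature was below that of red blood cells. The part of free RNA in these differences was not tested. Mt1 was 985 and 1079, 891 and 1103, and 1335 and 1027 CPM, and its training libraries overlapped the control. Mt3 was 934 and 914, 827 and 865, and 1036 and 729 CPM. The share of genes called was 0.0788% for occlusion against control, 0.0551% for training against control and 1.59% for training against occlusion. The astrocyte markers in these neurons summed to 509 and 520 CPM in control, 499 and 504 in occlusion and 543 and 460 in training libraries, with none at 0.

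Cluster n05-PGC-2 ran the other way for Mt2. It was 599 and 580 CPM in control, 378 and 437 in occlusion and 387 and 297 in training libraries, so both manipulated groups lay below the control. These values rest on 377 cells of 1 of the 18 neuronal clusters, were singled out after they were seen, and the difference was not tested. Mt2 was 499 ± 155 CPM in the cells of this cluster from N16 and 344 ± 123 in its other cells. The part of this makeup in the result was not tested.

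In endothelial cells, Mt1 was 2264 and 2308 CPM in control, 2467 and 2612 in occlusion and 2374 and 2417 in training libraries, a training difference of 0.09 (SE 0.10, edgeR adjusted p = 0.858). The share of genes called was 0.0104%, 0.259% and 0.591% for the 3 comparisons, and 0.0701%, 0.0526% and 0.0351% in mural cells. In mural cells, Mt3 was 544 and 496 CPM in control against 467 and 335 in training libraries, a log2 difference of −0.40 (SE 0.21, edgeR adjusted p = 0.871). It was −0.18 without training replicate 2 and −0.67 without training replicate 1. Microglia overlapped in each comparison for Mt1 and Mt3. Their Mt2 was 127 and 113 CPM in control, 135 and 163 in occlusion and 172 and 131 in training libraries, so both manipulated groups lay above the control. The differences were 0.32 (SE 0.17, edgeR adjusted p = 0.997) for occlusion and 0.31 (SE 0.17, adjusted p = 0.957) for training. Over all settings they ran from 0.13 to 0.48 and from 0.12 to 0.47. Mt2 per cell in microglia was below that of red blood cells, and the part of free RNA in these differences was not tested.

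Myelinating oligodendrocytes were not among the 7 classes compared, and their values are given without a test. Mt1 was 1380 and 1163 CPM in control, 1197 and 1685 in occlusion and 2543 and 2379 in training libraries, and Mt2 was 124 and 112, 138 and 175, and 281 and 310 CPM. Both training libraries lay above the other 4 for both genes. Mt3 was 338 and 242, 382 and 353, and 444 and 280 CPM, and its training libraries overlapped the control. These values rest on 858 cells and were singled out after they were seen.

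Replicate 2 and replicate 1 differ in the sex of the pool in every condition, and the members were compared between them in 3 classes with the condition in the fit. In astrocytes Mt1 averaged 7603 CPM in replicate 1 and 7969 in replicate 2, a log2 difference of 0.08 (SE 0.09, edgeR adjusted p = 0.957). The differences of Mt2 and Mt3 were 0.05 (SE 0.09) and 0.05 (SE 0.09). In ensheathing cells they were 0.01 (SE 0.10) for Mt1, 0.03 (SE 0.08) for Mt2 and −0.18 (SE 0.12) for Mt3, and in adult-born neurons 0.01 (SE 0.12), −0.08 (SE 0.10) and −0.16 (SE 0.11). The lowest of these 9 adjusted p-values was 0.93, and the share of genes called was 0.129%, 0.203% and 0.678%.

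Genes of metal handling were taken from a list of 32 with Mtf1, the zinc exporters Slc30a, the zinc importers Slc39a and copper proteins. Of the 31 in the table, 5 were highest in astrocytes. The zinc importer Slc39a12 was 342 ± 26.4 CPM in astrocytes and 6.37 ± 1.13 in adult-born neurons. The copper chaperone Atox1 was highest in endothelial cells, 1692 ± 173 CPM against 237 ± 19.8 in astrocytes, as was the importer Slc39a10, 475 ± 28.5 against 42.6 ± 5.63. Ceruloplasmin, the copper ferroxidase encoded by Cp, was 316 ± 68.6 CPM in mural cells and 2.64 ± 1.64 in astrocytes. The superoxide dismutase Sod1 was highest in sensory neurons, 335 ± 50.8 CPM, and Slc39a1 in oligodendrocyte precursors, 219 ± 60.0.

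None of the listed metal genes was called between conditions in any of the 21 pairs of class and comparison. Over 447 tests, edgeR left 19 (4.25%) under 0.05 before adjustment and DESeq2 called 0. Over all genes 0.174% of tests were called, so 0 calls is near the background and is no result about the list. In astrocytes 24 were tested for training against control, and their median log2 fold change was 0.04, where all genes had 0.00. The antioxidant list, with Hmox1, Nqo1 and the ferritins, gave 0 calls in 333 tests by edgeR, with 15 (4.50%) under 0.05 before adjustment, and 0 by DESeq2, which is read against the same background.

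Listed glucocorticoid targets had 10 calls in 249 tests (4.02%, against 0.174% over all genes), all higher after training, with 7 called by DESeq2. Before adjustment 68 (27.3%) were under 0.05, against 6.87% over all genes. The list, which also holds the receptor gene Nr3c1, was chosen with earlier results of these data known. Its tests repeat the same genes over classes of the same libraries, so these shares are given as description only. The trained mice were also water deprived, and the part of this was not tested. Of the 10, 2 were in astrocytes, 4 in endothelial cells and 2 in adult-born neurons for training against occlusion, where the share of all genes called was 0.22%, 0.591% and 1.59%, and 2 were in endothelial cells for training against control, where it was 0.259%. Of 13 tested in astrocytes, 2 were higher for training against occlusion and 0 lower. Tsc22d3, which encodes a glucocorticoid-induced leucine zipper protein, was 61.9 and 96.6 CPM in occlusion and 196 and 137 in training libraries (log2 difference 1.12, SE 0.19, edgeR adjusted p = 0.0148), with 86.3 and 104 in control. Cdkn1a, a cell cycle inhibitor, was 20.4 and 17.2 against 65.9 and 31.2 CPM (1.45, SE 0.30, adjusted p = 0.0496), with 24.8 and 34.8 in control, so that training replicate 2 lay within the control libraries. For training against control, none of the 13 was called in astrocytes by edgeR or DESeq2, with 5 under 0.05 before adjustment, and their median was 0.22. In endothelial cells 2 of 11 were called for training against control, both higher, among them Tsc22d3 at 1.89 (SE 0.21, adjusted p = 0.000492). All 11 lay above 0 there, with a median of 0.84, and Mt1 differed by 0.09. In ensheathing cells 13 of 14 lay above 0 for training against control, with a median of 0.51, and Mt1 differed by 0.56. The relation of Mt1 to these genes was not tested.

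The dissociation list of immediate early and heat shock genes had 3 calls in 327 tests, all among the 17 tested in adult-born neurons for training against occlusion, where the share of all genes called was the highest of the 21 comparisons, 1.59%. All were higher: Fosb at 1.58 (SE 0.30), Nr4a1 at 1.35 (SE 0.20) and Egr1 at 0.83 (SE 0.16), with edgeR adjusted p of 0.0103, 0.00133 and 0.00995. The name of the list gives no cause, and the parts of dissociation and of olfactory input in these calls were not tested. DESeq2 made 2 calls in all. Over the 7 classes 76 tests (23.2%) were under 0.05 before adjustment, against 6.87% over all genes. This list too was chosen with earlier results of these data known, and its shares are given as description only. In astrocytes none of the 13 tested was called by edgeR or DESeq2 in any comparison. Before adjustment, 1 was under 0.05 for occlusion against control, 0 for training against control and 3 for training against occlusion. The median for training against control was 0.19.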

How the data were processed

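RNA of dissociated olfactory bulb cells was counted in 6 libraries. The authors deposited a table of whole-number counts of UMIs per gene and cell, made with Cell Ranger 2.0.0 on mm10 per the submitters' processing notes, with the cell clusters they found in Seurat 2.2.1. The fraction of mitochondrial UMIs per cell was used as the authors deposited it. Libraries were assigned by the sample column of the annotation. The prefixes of the cell names of the training libraries are exchanged against it. Clusters were summed into classes by name, and 1123 barcodes without a cluster and 755 neuron-cluster cells left out of the neuronal annotation entered no class. No doublet caller was run here, and the study states that doublets were removed from its data. A listed ensheathing cell marker is not reported here.

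Counts were summed per class and library and divided by the class total (CPM). Conditions were compared with edgeR 4.0.16 (quasi-likelihood, TMM, filterByExpr, all 6 libraries in 1 fit) with Benjamini-Hochberg adjustment over all genes tested and a threshold of 0.05, and DESeq2 1.42.0 was an alternative. On simulated astrocyte counts for occlusion against control (10227 genes), the fit recovered 62.2% of 2-fold and 91.8% of 4-fold changes. Intervals and floors cover counting error only. Other alternatives were no TMM, no filter, cells with 1000 UMIs or more, single clusters and leaving out each library. The genes named were the members, the 5 genes most like each, the 6 metal genes with the highest level in a class and listed genes that passed the threshold. Fits of n04-Immature and n07-GC-2 alone were added after seeing the data. Members and lists were chosen with earlier results of these data known. Sequences come from GENCODE M1 and RefSeq (GRCm38.p6).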

Additional observations from a re-analysis of the deposited data

Results flagged for a closer look

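The 1123 barcodes without a cluster, which entered no comparison, held the 3 genes above the limit that a count of 0 allows, 0.993 CPM. Mt1 was 1859 CPM (95% exact Poisson interval 1811 to 1908, counting error only), Mt2 520 (495 to 547) and Mt3 1311 (1271 to 1353). The annotated cells held 2003, 520 and 1262 CPM. Median depth was 2327 UMIs in the barcodes without a cluster and 1354 in annotated cells.

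Some members had differences of opposite sign in different classes, with the libraries of the compared conditions not overlapping. None of these differences passed edgeR's test, several were smaller than their SE, and the differences between classes were not tested. The part of free RNA in them was not tested either. For training against occlusion, the log2 difference of Mt1 was 0.14 in astrocytes, 0.34 in ensheathing cells and 0.46 in mesenchymal cells, and −0.045 (SE 0.098) in endothelial cells, where it was 0.0079 without occlusion replicate 2. For Mt2 it was 0.16 in astrocytes, 0.24 in ensheathing cells and 0.27 in adult-born neurons, and −0.15 in endothelial cells. Over all settings these ran from 0.090 to 0.37, 0.17 to 0.26, 0.076 to 0.54 and −0.26 to −0.046. For occlusion against control, Mt3 was at 0.089 in astrocytes and at −0.17 in ensheathing cells, −0.20 in mesenchymal cells and −0.17 in adult-born neurons. For training against control, Mt3 was at 0.062 in astrocytes and −0.40 in mural cells.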

How the results depend on the processing

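Of 72 differences of the members between conditions or replicates, 38 kept their sign in every setting, and 6 passed the threshold in some setting. None of the 72 passed in the main analysis, whether or not its sign changed, and the cause of the changes was not tested. Mt1 and Mt2 for training against control in astrocytes were 0.40 and 0.49 without a filter, 0.40 and 0.49 in cells with 1000 UMIs or more and 0.59 and 0.66 in Astro2 alone, all past the threshold, and Mt2 was 0.49 with DESeq2, also past it. The other 4 were Mt1 and Mt2 for training against control and Mt1 and Mt3 for training against occlusion, all in ensheathing cells.

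The sign changed as follows. Without TMM, Mt2 and Mt3 in endothelial cells for training against control were −0.023 and −0.019, Mt3 in mesenchymal cells for training against occlusion −0.00028, Mt2 in microglia for the same comparison 0.028 and Mt1 between replicates in ensheathing cells −0.0043. In cells with 1000 UMIs or more, Mt2 and Mt3 in endothelial cells were −0.037 and −0.082 for training against control, Mt1 in mural cells −0.0069, Mt3 in mesenchymal cells 0.029 for occlusion and 0.081 for training against control, and Mt3 in microglia 0.0063 for occlusion. Mt2 in endothelial cells for training against control was −0.0021 with DESeq2, −0.0010 without a filter and −0.0048 with the libraries of the 2 groups alone. Mt3 in Astro2 alone was 0.25 for training against occlusion, and Mt1 in n07-GC-2 alone 0.13 for occlusion against control.

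Leaving out each library in turn gave these ranges of the log2 difference. In astrocytes, training against control, Mt1 0.37 to 0.42 and Mt2 0.41 to 0.56. In astrocytes, training against occlusion, Mt3 −0.055 to 0.017. In olfactory ensheathing cells, training against control, Mt3 −0.27 to 0.42. In olfactory ensheathing cells, training against occlusion, Mt3 −0.10 to 0.58. In endothelial cells, occlusion against control, Mt3 −0.13 to 0.33. In endothelial cells, training against control, Mt2 −0.11 to 0.11 and Mt3 −0.38 to 0.31. In endothelial cells, training against occlusion, Mt1 −0.097 to 0.0079 and Mt3 −0.46 to 0.23. In mural cells, occlusion against control, Mt2 −0.22 to 0.57 and Mt3 −0.055 to 0.084. In mural cells, training against control, Mt1 −0.19 to 0.28 and Mt2 −0.51 to 0.28. In mural cells, training against occlusion, Mt1 −0.36 to 0.11. In mesenchymal cells, occlusion against control, Mt1 −0.029 to 0.11. In mesenchymal cells, training against control, Mt3 −0.53 to 0.18. In mesenchymal cells, training against occlusion, Mt3 −0.34 to 0.37. In microglia, occlusion against control, Mt1 −0.063 to 0.35 and Mt3 −0.16 to 0.11. In microglia, training against control, Mt1 −0.021 to 0.25 and Mt3 −0.48 to 0.25. In microglia, training against occlusion, Mt1 −0.23 to 0.18, Mt2 −0.20 to 0.18 and Mt3 −0.46 to 0.26. In adult-born neurons, occlusion against control, Mt1 −0.26 to 0.076. In adult-born neurons, training against control, Mt1 −0.035 to 0.39 and Mt3 −0.37 to 0.18. In adult-born neurons, training against occlusion, Mt3 −0.21 to 0.34. In astrocytes, replicate 2 against 1, Mt2 −0.0054 to 0.077. In olfactory ensheathing cells, replicate 2 against 1, Mt1 −0.14 to 0.12 and Mt3 −0.35 to 0.066. In adult-born neurons, replicate 2 against 1, Mt1 −0.15 to 0.23, Mt2 −0.18 to 0.062 and Mt3 −0.29 to 0.029.

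The astrocyte level of Mt1 was 6617 CPM in the control libraries alone and 9008 CPM without mitochondrial and hemoglobin genes, that of Mt2 2238 and 3171, and that of Mt3 7878 without those genes, 7124 in cells with 1000 UMIs or more and 6255 as a mean of each cell's own CPM. The log2 ratio of neurons to astrocytes for Mt2 was −3.45 as a mean over cells and −3.87 in cells with 1000 UMIs or more.

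Genes called for occlusion against control, training against control and training against occlusion numbered 2, 3 and 23 in astrocytes and 10, 7 and 202 in adult-born neurons. With DESeq2 they numbered 0, 3 and 7, and 6, 12 and 84. Without a filter they numbered 17, 45 and 115, and 88, 73 and 496. Without TMM they numbered 2, 5 and 14, and 8, 7 and 131. In cells with 1000 UMIs or more they numbered 2, 22 and 33, and 15, 5 and 46. Without mitochondrial and hemoglobin genes they numbered 2, 5 and 21, and 5, 13 and 188. With the libraries of the 2 groups alone they numbered 2, 1 and 11, and 11, 5 and 167. In Astro1 alone they numbered 1, 16 and 19. In Astro2 alone they numbered 1, 3 and 3. In Astro3 alone they numbered 1, 1 and 3. In n04-Immature alone, chosen after seeing the data, they numbered 10, 0 and 1. In n07-GC-2 alone, chosen after seeing the data, they numbered 1, 5 and 19. Leaving out each library gave 0 to 10, 1 to 43 and 4 to 191 in astrocytes and 6 to 50, 1 to 18 and 20 to 303 in adult-born neurons.

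Replicate numbers are shared by the conditions and go with the sex of the pool, and nothing in the labels pairs the libraries further. Deviations of same-numbered libraries correlated at 0.119 to 0.18 in astrocytes and 0.199 to 0.272 in adult-born neurons, and at 0.00484 to 0.0569 and 0.0292 to 0.104 without sex-linked genes. With the replicate block, 2, 7 and 32 genes were called in astrocytes and 40, 35 and 403 in adult-born neurons, Mt3 in endothelial cells for training against control was −0.0019, and Mt2 in ensheathing cells for training against control passed the threshold (edgeR adjusted p = 0.0482).

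With 2 libraries a group, 62.2% of simulated 2-fold changes were recovered in astrocytes, and smaller changes were not simulated. Classes of few cells, such as n05-PGC-2 with 377, rest on few UMIs per library, and intervals cover counting error only. Free RNA was set against 10 listed genes, some of which other classes also express.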
